A study of Mus musculus with 1376 samples.

Results

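The genes described here are 9 genes of blood clotting and of the breakdown of clots, read across the muscle, mural and fibroblast cells of the mouse lung. They are the thrombin receptors F2r and F2rl3, the clotting initiator F3, the anticoagulant genes Thbd, Procr and Tfpi, the plasminogen activators Plat and Plau, and the protease inhibitor Serpine2. They were chosen by name, as 9 of the 46517 rows of the count table, with earlier results of these data known. The table holds read counts of 1376 single cells, sorted into plates and sequenced by Smart-Seq2, which copies whole transcripts and has no molecular identifiers. The cells came from 3 mice of the strain ACTA2GFP:CSPG4dsRED, whose name gives a green reporter for Acta2 (smooth muscle actin) and a red one for Cspg4 (the proteoglycan NG2). Of the cells, 47.5% came from the first male, 25.6% from the second male and 26.96% from the female. Mice were 8 to 30 weeks old, per the labels, whereas the series text speaks of males of up to 21 weeks and 1 mouse is labelled female. The sources used here give no gate for the sort, and the protocol names heart where the tissue label says lung.

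Clotting in tissue begins when tissue factor, the membrane protein made from F3, meets factor VII of the plasma. The cascade ends in thrombin, which cuts fibrinogen and also cuts and so activates receptors on cells, among them the protease-activated receptors PAR1 (F2r) and PAR4 (F2rl3). Thrombomodulin (Thbd) binds thrombin and turns it towards protein C, whose receptor is encoded by Procr, and tissue factor pathway inhibitor (Tfpi) blocks the first steps. Tissue-type and urokinase-type plasminogen activator (Plat and Plau) make plasmin, which dissolves fibrin. Protease nexin-1 (Serpine2) inhibits thrombin and both plasminogen activators. In vessel walls tissue factor is known from the cells around the endothelium, and thrombomodulin from the endothelium itself.

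Cells were clustered without any of these genes, and clusters were named from marker genes, so names carry "-like". Of the 1376 cells, 949 fell in 6 mesenchymal classes. Wherever values of 3 mice are given, they stand in the order first male, second male, female. Pericyte-like cells numbered 6, 9 and 32, alveolar myofibroblast-like cells 26, 40 and 37, adventitial fibroblast-like cells 12, 15 and 36, alveolar fibroblast-like cells 61, 70 and 42, and airway smooth muscle cell (SMC)-like cells 43, 14 and 28. Vascular SMC-like cells were 34.7% of all cells, and 56.3%, 34.3% and 9.41% of them came from the 3 mice. Another 67 cells were endothelial-like, 66 of them from the female, and 65 were macrophage-like, 61 of them from the first male. A cluster of 15.2% of the cells with mixed markers and one of 86 cells with a high mitochondrial share stayed unnamed. Counts per cell ran from 50835 to 1074103. Levels are CPM, the summed counts of a class in a mouse scaled to 1000000, with TMM (trimmed mean of M-values) factors unless called plain CPM, and n = 3 mice throughout. Each mouse is on plates of its own, so mouse and plate cannot be told apart.

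The DNA just upstream of 3 members that differed among the classes is shown beside the levels that follow. Each stretch is the 250 bases before the RefSeq start site (build GRCm38.p6), read 5′ to 3′ on the strand of the gene, and the RefSeq promoter table used here was matched for 6 of the 9 members. Capitals mark the GC box GGGCGG and the AP-1 motif TGANTCA, searched on both strands, with N for any base and no overlap between both motifs.
F2r, chr13:95618467-95618716, minus strand: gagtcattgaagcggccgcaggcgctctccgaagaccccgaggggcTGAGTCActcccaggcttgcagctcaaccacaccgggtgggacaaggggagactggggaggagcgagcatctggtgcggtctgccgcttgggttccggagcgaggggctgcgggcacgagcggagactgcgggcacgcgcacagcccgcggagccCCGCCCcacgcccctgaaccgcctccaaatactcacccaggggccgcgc
F3, chr3:121723287-121723536, plus strand: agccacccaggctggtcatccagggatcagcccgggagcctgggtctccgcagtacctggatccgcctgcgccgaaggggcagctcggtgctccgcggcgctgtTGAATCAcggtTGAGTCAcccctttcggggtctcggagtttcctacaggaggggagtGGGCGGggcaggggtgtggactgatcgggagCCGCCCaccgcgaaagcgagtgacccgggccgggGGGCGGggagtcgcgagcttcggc
Serpine2, chr1:79858666-79858915, minus strand: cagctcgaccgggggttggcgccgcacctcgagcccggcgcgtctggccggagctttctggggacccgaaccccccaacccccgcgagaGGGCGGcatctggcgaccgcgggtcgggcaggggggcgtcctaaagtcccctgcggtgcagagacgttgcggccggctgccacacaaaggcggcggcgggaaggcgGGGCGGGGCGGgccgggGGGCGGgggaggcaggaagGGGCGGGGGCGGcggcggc

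The F3 stretch held 2 AP-1 motifs, with 4 bases between them, and 3 GC boxes. The F2r stretch held 1 AP-1 motif and 1 GC box. The Serpine2 stretch held 6 GC boxes and no AP-1 motif. The RefSeq starts of F2r and Serpine2 lie inside the genes as GENCODE draws them, so part or all of these stretches does too. Over the 32851 stretches of the same length in the RefSeq table, 6.75% held the AP-1 motif and 32.7% the GC box. A match is a run of letters and does not show that a factor binds there.

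F2r, which encodes the thrombin receptor PAR1 (ENSMUSG00000048376, chromosome 13, 95601803 to 95618487, minus strand), was most abundant in pericyte-like cells. It had 2094, 2203 and 3409 CPM in pericyte-like cells of the 3 mice. It had 925.3, 1142 and 644.8 CPM in adventitial fibroblast-like cells, 709.7, 847.1 and 757.8 CPM in alveolar fibroblast-like cells and 538.6, 531.1 and 404.4 CPM in alveolar myofibroblast-like cells. The lowest levels were 121.6, 213.9 and 225.4 CPM in vascular SMC-like cells and 113.1, 168.2 and 207.5 CPM in airway SMC-like cells. Every pericyte-like sum lay above every sum of the other 5 classes. The ranges of both fibroblast classes overlapped, as did those of both SMC classes, while the myofibroblast-like range lay between these pairs without touching either. Means were 2569 ± 729.5 CPM in pericyte-like cells, 904.03 ± 249.2 in adventitial fibroblast-like, 771.5 ± 69.8 in alveolar fibroblast-like, 491.4 ± 75.4 in alveolar myofibroblast-like, 186.99 ± 56.9 in vascular SMC-like and 162.9 ± 47.4 in airway SMC-like cells (SD, n = 3).

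F2r passed edgeR's quasi-likelihood test, with the mouse as a block, in 4 of the 7 comparisons between classes. The log2 fold change of pericyte-like over vascular SMC-like cells was 3.80 ± 0.32 (SE, n = 3; adjusted p = 7.69e-06 by edgeR). Pericyte-like cells were also higher than alveolar fibroblast-like cells, by 1.73 ± 0.29 on the log2 scale (adjusted p = 0.00165). Alveolar fibroblast-like cells were higher than vascular SMC-like cells by 2.05 ± 0.28 (adjusted p = 0.000770), and alveolar myofibroblast-like cells were higher than airway SMC-like cells by 1.60 ± 0.27 (adjusted p = 0.0142). Each of these directions held in 3 of 3 mice. The call between alveolar myofibroblast-like and airway SMC-like cells was lost without the first male (adjusted p = 0.211) or the second (0.252). Airway SMC-like over vascular SMC-like cells gave a log2 fold change of −0.20 ± 0.27 (adjusted p = 0.904), and alveolar myofibroblast-like over alveolar fibroblast-like cells gave −0.65 ± 0.27 (adjusted p = 0.302).

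The pericyte-like class is small and its edge depends on the clustering. At Leiden resolution 2 a wider cluster, with more cells of every mouse, took that name. There F2r had 1115, 1746 and 916 CPM (plain) in pericyte-like cells, against 152.3, 236.5 and 225.9 CPM in vascular SMC-like cells of that clustering, and the log2 fold change was 2.57 (adjusted p = 0.000306 by edgeR). Against alveolar fibroblast-like cells (787.6, 858.9 and 735.5 CPM) it was 0.62 and no longer passed (adjusted p = 0.221). In sums over cells, fewer cells that hold a transcript and less RNA per cell cannot be told apart.

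F2rl3, which encodes the other thrombin receptor, PAR4 (ENSMUSG00000050147, chromosome 8, 72761880 to 72763874, plus strand), had 0 counts in all 949 cells of the 6 classes. A floor of 3 counts in a sum allows up to 1.84 CPM in pericyte-like cells of the first male. The whole table held 2 counts of F2rl3, in 2 endothelial-like cells, so no test was made. F2rl1 (PAR2) had 71 counts in 25 cells and F2rl2 (PAR3) had counts in 9 cells of the whole table, and neither entered the test.

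**Figure D1:**
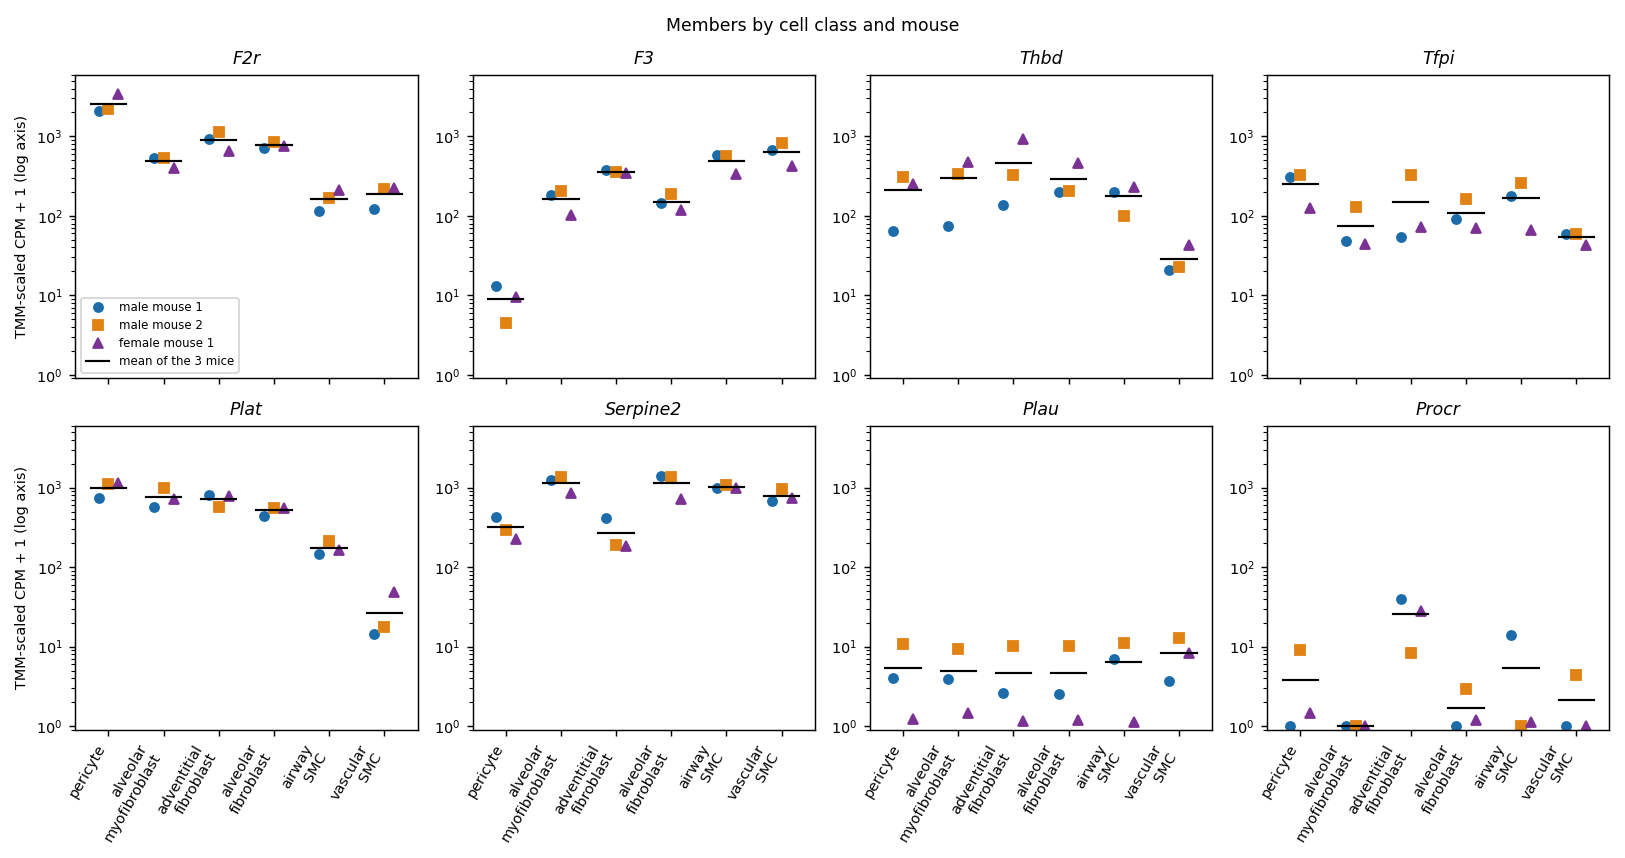
Levels of the 8 members with counts in these classes, as TMM-scaled CPM plus 1 on a log axis, in 6 cell classes (each name stands for -like cells). Symbols are the 3 mice and horizontal bars their mean. F2r is highest and F3 lowest in pericyte-like cells, Plat and Thbd are lowest in vascular SMC-like cells, and Plau stays at or under 11.9 CPM in every sum.

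F3, tissue factor (ENSMUSG00000028128, chromosome 3, 121723537 to 121735048, plus strand), had its highest mean levels in the SMC classes and its lowest in pericyte-like cells. Pericyte-like cells of the 3 mice had 12.2, 3.42 and 8.5 CPM, from 20, 6 and 37 counts. Alveolar fibroblast-like cells had 143.3, 189.1 and 118.1 CPM, alveolar myofibroblast-like cells 183.1, 205.4 and 101.5 CPM and adventitial fibroblast-like cells 378.1, 351.7 and 341.6 CPM. Airway SMC-like cells had 586.99, 559.5 and 331.04 CPM and vascular SMC-like cells 667.7, 816.95 and 423.6 CPM. All 3 pericyte-like sums lay below every other sum. The ranges of both SMC classes overlapped, that of airway SMC-like cells also overlapped that of adventitial fibroblast-like cells, and those of alveolar fibroblast-like and alveolar myofibroblast-like cells overlapped below that of adventitial fibroblast-like cells. Means were 8.06 ± 4.43 CPM in pericyte-like and 636.1 ± 198.6 CPM in vascular SMC-like cells (SD, n = 3).

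F3 was lower in pericyte-like than in vascular SMC-like cells, with a log2 fold change of −6.23 ± 0.47 (SE, n = 3; adjusted p = 6.64e-06 by edgeR), a 75.1-fold difference. Alveolar fibroblast-like cells were also lower than vascular SMC-like cells (−2.08 ± 0.23, adjusted p = 0.000191), and alveolar myofibroblast-like cells were lower than airway SMC-like cells (−1.63 ± 0.23, adjusted p = 0.00440). Pericyte-like cells were lower than alveolar fibroblast-like cells (−4.17 ± 0.43, adjusted p = 2.51e-05), and adventitial fibroblast-like cells were higher than alveolar fibroblast-like cells (1.27 ± 0.23, adjusted p = 0.0400). Each direction held in 3 of 3 mice. Without the first male the call between alveolar myofibroblast-like and airway SMC-like cells was lost (adjusted p = 0.136), as it was without the second (0.0756). The adventitial call was lost when any 1 mouse was left out (adjusted p = 0.238 to 0.580), without the mouse as a block (0.309) and with no filter on low counts (0.0637). Airway SMC-like over vascular SMC-like cells gave −0.38 ± 0.23 (adjusted p = 0.598).

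The low F3 of pericyte-like cells depends on how wide the class is. In the wider class at Leiden resolution 2, F3 had 195.6, 143.3 and 172.6 CPM (plain). It was then still lower than in vascular SMC-like cells (956.8, 1010 and 417.9 CPM; log2 fold change −2.12, adjusted p = 0.00328 by edgeR) but no longer lower than in alveolar fibroblast-like cells (158.98, 191.7 and 114.6 CPM; 0.187, adjusted p = 0.843). F3 is known as an inducible gene, so 13 immediate early and heat shock genes were summed, a list drawn up after the classes were known. They came to 2920 to 10185 CPM in pericyte-like cells over the 3 mice, against 14086 to 18669 CPM in alveolar fibroblast-like and 13141 to 16716 CPM in vascular SMC-like cells. They came to 23140 to 29846 CPM in airway SMC-like cells. All 13 had counts in every class, and their part in the F3 levels was not tested.

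**Figure D2:**
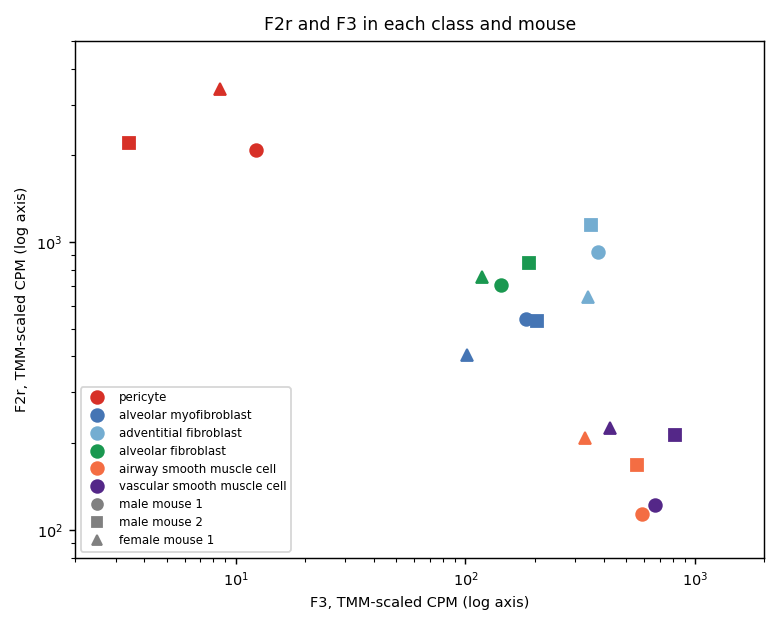
Level of F2r against level of F3, both as TMM-scaled CPM on log axes, for 6 classes (colours, each name standing for -like cells) and 3 mice (symbols). Pericyte-like sums lie alone at the upper left, with F2r at 2094 to 3409 CPM and F3 at 3.42 to 12.2 CPM, and both SMC classes lie at the lower right. Points of a mouse share their plates.

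Among the anticoagulant genes, Thbd had its lowest levels in vascular SMC-like cells. Thbd (thrombomodulin; ENSMUSG00000074743, chromosome 2, 148404466 to 148408188, minus strand) had 64.3, 311.5 and 253.5 CPM in pericyte-like cells, 74.2, 332.1 and 480.4 CPM in alveolar myofibroblast-like cells and 135.7, 325.8 and 932.3 CPM in adventitial fibroblast-like cells of the 3 mice. It had 198.3, 206.4 and 462.1 CPM in alveolar fibroblast-like and 196.8, 99.8 and 229.6 CPM in airway SMC-like cells. Vascular SMC-like cells had 20.1, 21.5 and 41.99 CPM. These 3 vascular sums lay below all 15 others, and the other 5 classes overlapped one another. The female had the highest Thbd of the 3 mice in each class but the pericyte-like one.

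Thbd was higher than in vascular SMC-like cells by a log2 fold change of 2.83 ± 0.59 in pericyte-like cells (SE, n = 3; adjusted p = 0.00752 by edgeR), 3.31 ± 0.54 in alveolar fibroblast-like cells (adjusted p = 0.00297) and 2.78 ± 0.53 in airway SMC-like cells (adjusted p = 0.0179), each in 3 of 3 mice. The pericyte-like call was lost without the second male (adjusted p = 0.151) or the female (0.104). The airway call was lost without the same mice (adjusted p = 0.125 and 0.220), and the alveolar fibroblast-like call without the female (adjusted p = 0.0833). In airway SMC-like cells of the second male, 1 of the 14 cells held 65.4% of the Thbd counts. In pericyte-like cells of the first male, 1 of the 6 cells held 56.2% of them. All 10 endothelial markers had counts in every class. They summed to 1361 to 3445 CPM in pericyte-like, 373.2 to 590.8 in alveolar fibroblast-like, 393.9 to 552.4 in airway SMC-like and 605.8 or less in vascular SMC-like cells, and their part in the Thbd level of pericyte-like cells was not tested. In alveolar fibroblast-like and airway SMC-like cells these sums overlapped those of vascular SMC-like cells.

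Tfpi, the inhibitor of the tissue factor pathway (ENSMUSG00000027082, chromosome 2, 84432855 to 84476775, minus strand), had 306.1, 326.3 and 124.5 CPM in pericyte-like cells of the 3 mice, against 58.7, 58.7 and 41.7 CPM in vascular SMC-like cells. The other 4 classes ran from 43.7 to 323.3 CPM, and the range of each class overlapped that of the next in order. The log2 fold change of pericyte-like over vascular SMC-like cells was 2.13 ± 0.50 (SE, n = 3; adjusted p = 0.0157 by edgeR), in 3 of 3 mice. That call was lost without the first male (adjusted p = 0.0894), the second male (0.188) or the female (0.0961). It was also lost in the wider pericyte-like class at Leiden resolution 2 (log2 fold change 1.46, adjusted p = 0.147 by edgeR). Over the 5 classes tested together, Tfpi did not pass edgeR's test (adjusted p = 0.192). DESeq2 called Tfpi over the classes (adjusted p = 0.0318), higher in airway SMC-like than in vascular SMC-like cells (0.0173) and higher in pericyte-like than in alveolar fibroblast-like cells (0.0285). For these pairs edgeR gave adjusted p = 0.165 and 0.137 and called neither. In airway SMC-like cells of the second male, 1 of the 14 cells held 57.9% of the Tfpi counts. Among the 28 of the female, 1 held 36.2% of them.

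Procr, the protein C receptor (ENSMUSG00000027611, chromosome 2, 155751117 to 155755471, plus strand), was near 0 in most classes. It had 38.97, 7.22 and 27.4 CPM in adventitial fibroblast-like cells of the 3 mice, and at least 10 counts in 11.1% of those 63 cells. All Procr counts of this class came from 1 of the 12 cells in the first male and 1 of the 15 in the second. Among the 36 cells of the female, 1 held 34.6% of them. Mean Procr was at most 4.31 CPM in the other 5 classes, with 0 counts in alveolar myofibroblast-like cells. At the clustering used for these levels edgeR called it in no comparison (adjusted p = 0.241 over the 5 classes). It was called over the classes at Leiden resolution 2 (adjusted p = 0.0439 by edgeR), where pericyte-like cells entered that test and airway SMC-like cells were missing. DESeq2 called it lower in alveolar myofibroblast-like cells, with their 0 counts, than in alveolar fibroblast-like and airway SMC-like cells.

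Plat, tissue-type plasminogen activator (ENSMUSG00000031538, chromosome 8, 22757727 to 22782844, plus strand), was lowest in vascular SMC-like cells. In the 3 mice it had 736.4, 1110 and 1134 CPM in pericyte-like cells, 562.5, 979.3 and 720.96 CPM in alveolar myofibroblast-like cells and 798.5, 573.9 and 780.4 CPM in adventitial fibroblast-like cells. It had 435.8, 551.8 and 560.8 CPM in alveolar fibroblast-like and 144.02, 213.1 and 162.9 CPM in airway SMC-like cells. Vascular SMC-like cells had 13.2, 16.6 and 47.8 CPM. Airway SMC-like sums lay between those of vascular SMC-like cells and those of the 4 other classes, with no overlap on either side.

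Over vascular SMC-like cells, the log2 fold change of Plat was 5.35 ± 0.43 in pericyte-like cells (SE, n = 3; adjusted p = 7.27e-06 by edgeR), which is 40.7-fold, 4.41 ± 0.41 in alveolar fibroblast-like cells (adjusted p = 4.83e-05) and 2.85 ± 0.38 in airway SMC-like cells (adjusted p = 0.00230). Alveolar myofibroblast-like cells were higher than airway SMC-like cells by 2.10 ± 0.37 (adjusted p = 0.0155). Each direction held in 3 of 3 mice. The airway call was lost without the first male (adjusted p = 0.0836) or the second (0.0619), and the myofibroblast-like call when any 1 mouse was left out (adjusted p = 0.0501 to 0.174). Pericyte-like over alveolar fibroblast-like cells gave 0.93 ± 0.36 and did not pass (adjusted p = 0.133). In pericyte-like cells of the first male, 1 of the 6 cells held 54.2% of the Plat counts. In airway SMC-like cells of the second male, 1 of the 14 cells held 50.2% of them. In the wider pericyte-like class at Leiden resolution 2, Plat had 341.96, 806.99 and 285.5 plain CPM, against 483.6, 559.4 and 544.3 plain CPM in alveolar fibroblast-like cells (log2 fold change −0.17, adjusted p = 0.930 by edgeR). Over vascular SMC-like cells (17.2, 12.7 and 48.5 plain CPM) the log2 fold change was then 4.23 (adjusted p = 0.00175).

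Plau, urokinase-type plasminogen activator (ENSMUSG00000021822, chromosome 14, 20836660 to 20843385, plus strand), was low in all 6 classes. It ran from 1.52 to 5.99 CPM in the first male, from 8.43 to 11.9 CPM in the second and from 0.117 to 7.20 CPM in the female. Cells with at least 1 count were many (70.7% of vascular SMC-like cells), while 0.418% of them had at least 10 counts. No comparison called Plau (adjusted p = 0.540 by edgeR over the 5 classes). Macrophage-like cells of the first male, which entered no test, had 47.1 plain CPM.

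Serpine2, protease nexin-1 (ENSMUSG00000026249, chromosome 1, 79794197 to 79861180, minus strand), was lower in pericyte-like and adventitial fibroblast-like cells than in the 4 other classes. In the 3 mice it had 421.8, 294.96 and 228.2 CPM in pericyte-like and 416.5, 191.1 and 185.6 CPM in adventitial fibroblast-like cells. It had 1253, 1373 and 848.9 CPM in alveolar myofibroblast-like and 1385, 1366 and 720.8 CPM in alveolar fibroblast-like cells. It had 982.5, 1071 and 989.6 CPM in airway SMC-like and 670.3, 969.2 and 732.9 CPM in vascular SMC-like cells. Every pericyte-like and adventitial sum lay below every sum of the other 4 classes.

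Serpine2 was lower in pericyte-like than in vascular SMC-like cells, with a log2 fold change of −1.38 ± 0.29 (SE, n = 3; adjusted p = 0.00784 by edgeR), and lower than in alveolar fibroblast-like cells (−1.87 ± 0.29, adjusted p = 0.000897). Adventitial fibroblast-like cells were lower than alveolar fibroblast-like cells (−2.16 ± 0.29, adjusted p = 0.00722). Each direction held in 3 of 3 mice. The call against vascular SMC-like cells was lost without the second male (adjusted p = 0.104) or the female (0.0868) and at Leiden resolution 2 (log2 fold change −0.89, adjusted p = 0.266), and the adventitial call was lost when any 1 mouse was left out (adjusted p = 0.0560 to 0.173). In pericyte-like cells of the second male, 1 of the 9 cells held 67.9% of the Serpine2 counts.

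**Figure D3:**
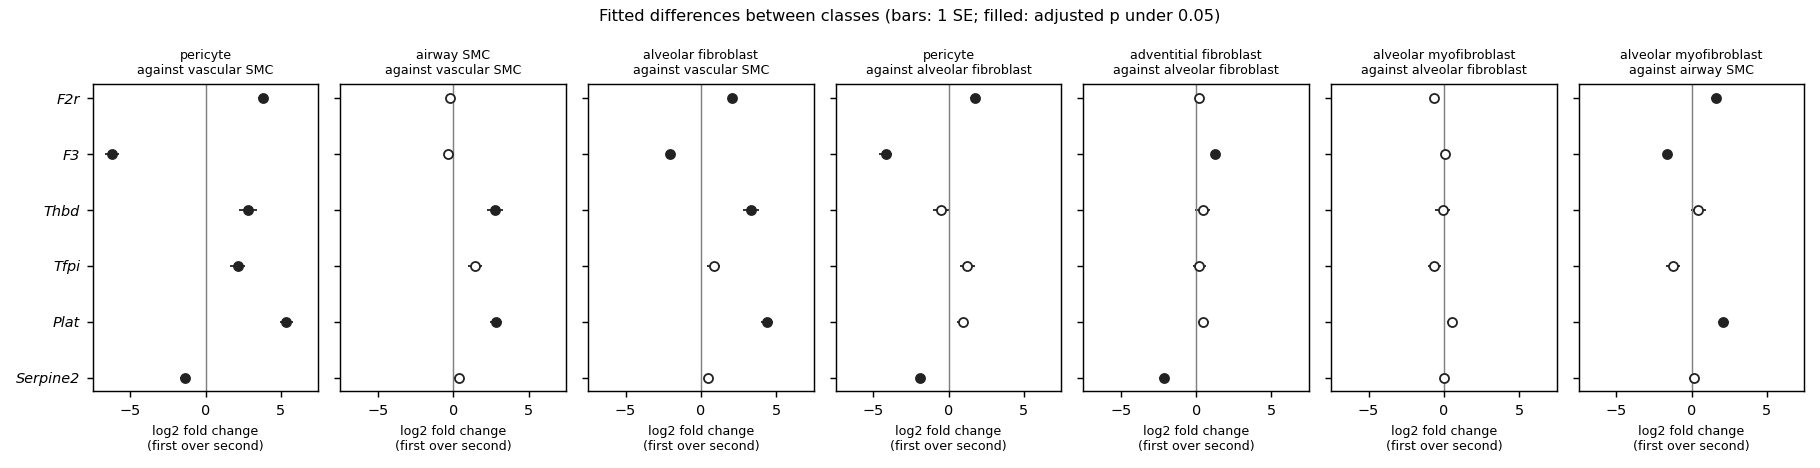
Fitted log2 fold changes of 6 members in the 7 comparisons between classes, with the class named first over the class named second (each name stands for -like cells); bars are 1 SE and filled points passed an adjusted p of 0.05. Pericyte-like over vascular SMC-like cells has the most filled points, at 6, and alveolar myofibroblast-like over alveolar fibroblast-like cells has 0.

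Tested over the 5 classes with at least 10 cells in each mouse, F2r, F3, Plat, Serpine2 and Thbd were called, 5 of the 8 members tested, and 9.78% of all genes were. F2rl3 was not tested. Thbd and Serpine2 lost this call without the second male (adjusted p = 0.123 and 0.0669 by edgeR) or the female (0.188 and 0.0578), and F2r, F3 and Plat kept it.

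Between pericyte-like and vascular SMC-like cells, 4 members were higher (F2r, Plat, Thbd and Tfpi) and 2 lower (F3 and Serpine2), 6 of 8, where 8.16% of all genes were called, 2.36% higher and 5.8% lower. The members' median log2 fold change was 2.06, and that of all genes −0.587. F2r, F3 and Plat kept their calls whichever mouse was left out, and they were the 3 members called without the second male, without the female or with these classes alone in the fit. With DESeq2's size factors in edgeR the median of all genes moved to −0.385, and no called member changed its direction. Between pericyte-like and alveolar fibroblast-like cells that scaling moved the median of all genes to −0.342, from −0.516.

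Between alveolar fibroblast-like and vascular SMC-like cells, F2r, Plat and Thbd were higher and F3 lower, 4 of 8, where 5.21% of all genes were called, 3.14% higher and 2.07% lower. F2r, F3 and Plat kept these calls whichever mouse was left out. Between airway SMC-like and vascular SMC-like cells, Thbd and Plat were higher, 2 of 8, where 1.96% of all genes were called, 1.11% higher and 0.854% lower, and no member was called without the second male. These 3 comparisons share the vascular SMC-like sums.

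Between pericyte-like and alveolar fibroblast-like cells, F2r was higher and F3 and Serpine2 lower, 3 of 8, where 8.08% of all genes were called, 1.94% higher and 6.14% lower. All 3 were called whichever mouse was left out, F2r only just so without the second male (adjusted p = 0.0499 by edgeR). With these classes alone in the fit F3 was not called (adjusted p = 0.0877 by edgeR), and at resolution 2 Serpine2 alone was. Between alveolar myofibroblast-like and airway SMC-like cells, F2r and Plat were higher and F3 lower, 3 of 8, where 1.34% of all genes were called, 0.717% higher and 0.625% lower. None of the 3 was called without the first male, without the second or with these classes alone in the fit. Between adventitial and alveolar fibroblast-like cells, F3 was higher and Serpine2 lower, 2 of 8, where 0.346% of all genes were called, 0.155% higher and 0.192% lower, and neither call held when any 1 mouse was left out. Between alveolar myofibroblast-like and alveolar fibroblast-like cells, edgeR called 0 of 8 members, where 2.49% of all genes were called, 1.02% higher and 1.47% lower. There 1 member, F2r, had an unadjusted p under 0.05, and DESeq2 called 1, Procr, which had 0 counts in the myofibroblast-like cells.

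To compare genes with each other, levels were divided by exon length in kilobases, taken over the merged exons of all annotated transcripts. That length can exceed that of the transcripts present, so the order of genes on this scale depends on the annotation. On that scale F2r in pericyte-like cells was the highest of the members in any class, at 770.0 ± 218.7 CPM per kb (SD, n = 3). F3 in vascular SMC-like cells had 251.7 ± 78.6, Plat in pericyte-like cells 159.2 ± 35.7, Serpine2 in alveolar myofibroblast-like cells 139.8 ± 33.1 and Thbd in adventitial fibroblast-like cells 124.8 ± 111.7 CPM per kb. Plau had at most 3.07 CPM per kb in the mean of a class.

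Some of the differences also showed in how many cells held a gene. That of F2r between pericyte-like and alveolar fibroblast-like cells did not. Low counts were widespread, so a cell was taken to hold a gene at 10 counts, and the share at 1 count is given beside it. F2r reached 10 counts in 91.5% of pericyte-like cells (exact 95% binomial interval 79.6% to 97.6%, which covers counting error only), against 90.8% (85.4% to 94.6%) of alveolar fibroblast-like and 39.3% (34.9% to 43.9%) of vascular SMC-like cells. At 1 count the shares were 100%, 98.3% and 67.8%. Macrophage-like cells, in which F2r had 7.13 plain CPM in the first male, had 1.54% at 10 counts and 30.8% at 1. Whether such low counts are background was not tested. Median depth was 155000 counts a cell in pericyte-like, 297600 in alveolar fibroblast-like, 216530 in vascular SMC-like and 239900 in macrophage-like cells.

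F3 reached 10 counts in 0 of 47 pericyte-like cells, which allows a share of up to 6.38% at 3 cells (exact 95% upper bound 7.55%), against 78.7% (74.7% to 82.3%) of vascular SMC-like cells. At 1 count the shares were 68.1% and 93.9%, and endothelial-like cells, taken as a class that should lack F3, had 2.99% at 10 counts and 41.8% at 1 (median depth 150500). With every cell thinned to 50000 counts, F3 reached 3 counts in 4.26% of pericyte-like cells, against 78.5% of vascular SMC-like and 2.99% of endothelial-like cells. Plat reached 10 counts in 78.7% (64.3% to 89.3%) of pericyte-like cells, against 3.97% (2.41% to 6.14%) of vascular SMC-like cells. Serpine2 did so in 38.3% of pericyte-like and 39.7% of adventitial fibroblast-like cells, against 85.6% to 94.2% in the other 4 classes. By mouse the Serpine2 share was 83.3%, 44.4% and 28.1% in pericyte-like cells. The vascular SMC-like class had shares of 82.2%, 89.6% and 91.1%, and in the first male the classes lay close together. Thbd did so in 27.7% of pericyte-like, 61.8% of alveolar fibroblast-like and 34.1% of airway SMC-like cells, against 6.28% of vascular SMC-like cells. By mouse the Thbd share was 33.3%, 66.7% and 15.6% in pericyte-like and 41.9%, 14.3% and 32.1% in airway SMC-like cells, so the pooled order of these classes held in 2 of 3 mice.

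**Figure D4:**
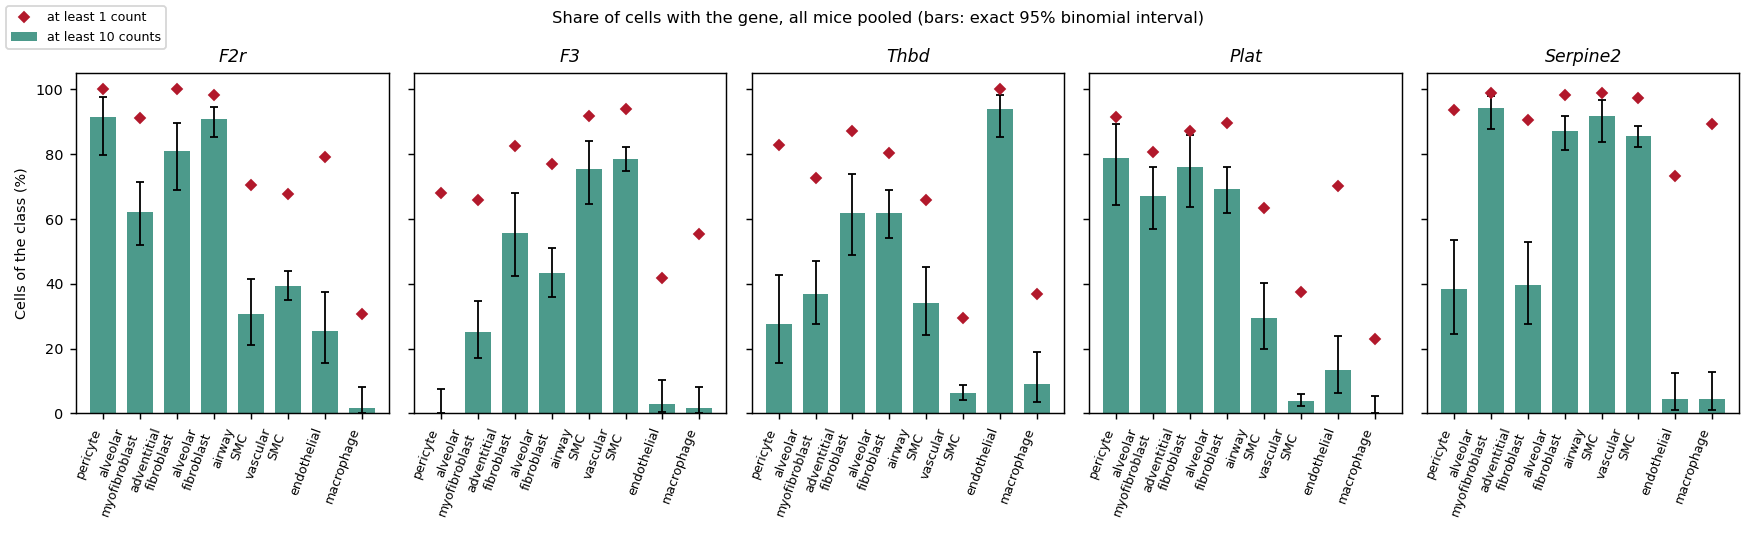
Percent of cells of each class, all mice pooled, with at least 10 counts (bars, with exact 95% binomial intervals) or at least 1 count (diamonds) of 5 members; each name stands for -like cells. Endothelial-like and macrophage-like cells come nearly all from 1 mouse each. F3 has no bar in pericyte-like cells, and Thbd has its highest bar in endothelial-like cells.

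Members met in the same cells to different extents. F3 and Thbd both reached 10 counts in 0% of pericyte-like, 38.1% of adventitial fibroblast-like, 27.2% of alveolar fibroblast-like and 24.7% of airway SMC-like cells, against 5.65% of vascular SMC-like cells. F2r and Plat both did so in 72.3% of pericyte-like and 64.2% of alveolar fibroblast-like cells, against 1.88% of vascular SMC-like cells. F3 and Serpine2 both did so in 71.8% of airway SMC-like and 66.7% of vascular SMC-like cells. These shares depend on how common each gene is in a class and carry no test.

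The vascular SMC-like class joins clusters 1 and 4, and F3 and Serpine2 ran in opposite directions between them. Cluster 1 (23.3% of all cells; led by Stac and P2rx1) had 901.3, 1007 and 871.04 CPM of F3, all plain. Cluster 4 (56, 63 and 39 cells; led by Efhd1, Slc25a34 and Sfrp2) had 377.8, 542.8 and 355.4 CPM, below every value of cluster 1. Serpine2 had 645.95, 752.3 and 623.9 CPM in cluster 1 and 1223, 1427 and 733.8 CPM in cluster 4, higher in cluster 4 in each mouse. The female gave 6 cells of cluster 1 and 39 of cluster 4, while most vascular SMC-like cells of both males lay in cluster 1, so the mix of the class differs between mice. The unnamed cluster 2 (95, 30 and 84 cells; led by Adora1 and Col8a1) had F3 at 542.97, 340.3 and 215.9 CPM and F2r at 274.6, 280.5 and 352.7 CPM. Its Thbd was 197.1, 120.4 and 431.8 CPM, above both vascular SMC-like clusters in every mouse. These are descriptions with no test.

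**Figure D5:**
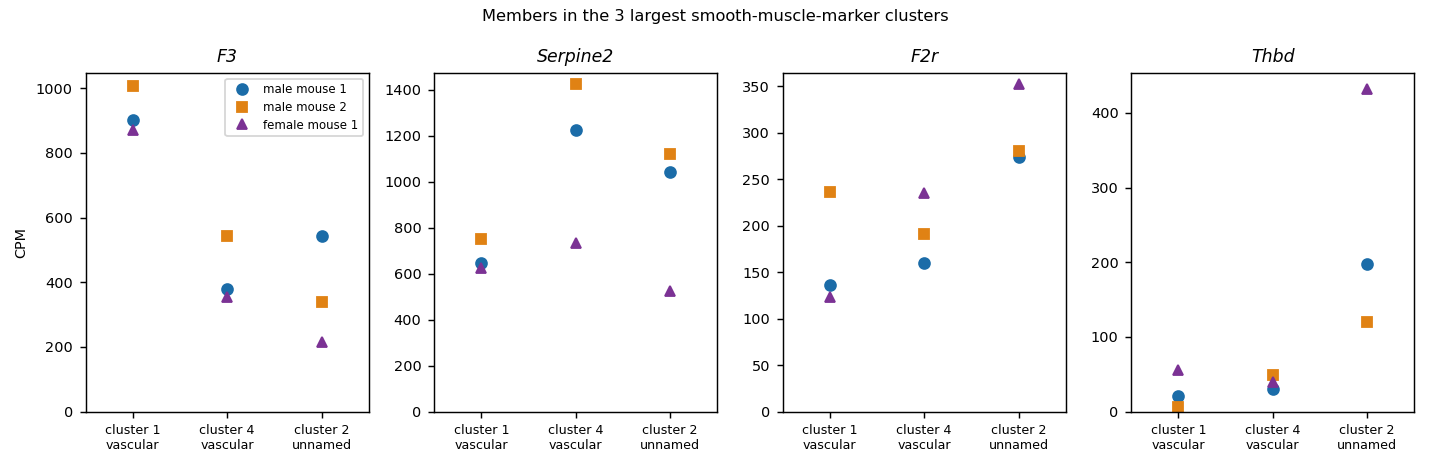
Plain CPM of F3, Serpine2, F2r and Thbd in clusters 1 and 4, which form the vascular SMC-like class, and in the unnamed cluster 2; symbols are the 3 mice. F3 is higher in cluster 1 than in cluster 4 in each mouse, Serpine2 is higher in cluster 4, and Thbd is highest in cluster 2.

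Endothelial-like cells were too few outside the female for a test, and their values stand for 66 cells of that mouse. Thbd had 2572 plain CPM there, against 39.4 to 871.3 plain CPM in the mesenchymal clusters of the same mouse that took a name, and it reached 10 counts in 94.03% of all 67 endothelial-like cells. In these endothelial-like cells F2r had 99.8, Plat 143.4, Tfpi 77.7, Serpine2 21.8, Procr 11.4 and F3 7.67 plain CPM. In macrophage-like cells of the first male, Thbd had 87.1, F3 32.5 and Plat 1.37 plain CPM.

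Of the other genes of clotting and fibrinolysis, a list of 40 in the table, 16 passed the filter on low counts and 8 were called over the 5 classes, where 9.78% of all genes were. They were the plasminogen-binding annexin A2 (Anxa2) and its partner S100a10, annexin A5 (Anxa5), the protein C cofactor protein S (Pros1), the endocytic receptor Lrp1, the protease inhibitors Tfpi2 and A2m, and the factor XIII subunit F13a1. Mean Pros1 was 444.4 CPM in pericyte-like, 546.02 in alveolar fibroblast-like, 448.8 in airway SMC-like and 149.4 in vascular SMC-like cells. It was higher than in vascular SMC-like cells in all 3 classes, by 1.57 ± 0.25 (adjusted p = 0.00106 by edgeR), 1.86 ± 0.22 (adjusted p = 0.000340) and 1.60 ± 0.22 (adjusted p = 0.00264) on the log2 scale. Anxa5 and Anxa2 were higher in alveolar fibroblast-like than in vascular SMC-like cells (log2 fold changes 1.22 ± 0.20 and 0.89 ± 0.18, adjusted p = 0.00270 and 0.0126). Both were higher in alveolar myofibroblast-like than in airway SMC-like cells (1.57 ± 0.20 and 1.39 ± 0.18, adjusted p = 0.00279 and 0.00324). S100a10 was higher in both comparisons too (1.40 ± 0.34 and 1.75 ± 0.35, adjusted p = 0.0333 and 0.0306). Of all these calls, that of Pros1 between alveolar fibroblast-like and vascular SMC-like cells held whichever mouse was left out, and each other was lost without at least 1 mouse. Over the 5 classes Anxa2, Anxa5 and Pros1 kept their call whichever mouse was left out, and the other 5 genes did not. Lrp1 averaged 1095 CPM in alveolar fibroblast-like and 252.6 CPM in vascular SMC-like cells (2.06 ± 0.54, adjusted p = 0.0498), a call lost without the first male or the female.

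Tfpi2 averaged 7.19 CPM in pericyte-like, 34.1 in alveolar fibroblast-like and 19.1 in adventitial fibroblast-like cells, against 0.0278 CPM in vascular SMC-like cells, and the pericyte-like direction held in 2 of 3 mice. A2m averaged 67.9 CPM in adventitial fibroblast-like and at most 4.02 CPM in the other 5 classes. F13a1 averaged 14.04 CPM in vascular SMC-like and at most 0.596 CPM in the other 5 classes, and macrophage-like cells of the first male had 1392 plain CPM. F11, F12, F13b, Fgg, Plg and Cpb2, genes of proteins that plasma carries, had 0 counts in the whole table.

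By comparison, 3 of the 16 other genes were higher and 3 lower in pericyte-like than in vascular SMC-like cells, where 8.16% of all genes were called, at a median log2 fold change of −0.718, against −0.587 for all genes. In alveolar fibroblast-like over vascular SMC-like cells 6 were higher and 0 lower (median 0.141, all genes −0.076, 5.21% of them called), and in airway over vascular SMC-like cells 1 was higher and 0 lower (−0.416, all genes −0.209, 1.96% of them called). In alveolar myofibroblast-like over airway SMC-like cells 3 were higher and 0 lower (0.697, all genes 0.085, 1.34% of them called), and in pericyte-like over alveolar fibroblast-like cells 0 were higher and 3 lower (−0.623, all genes −0.516, 8.08% of them called). In alveolar myofibroblast-like over alveolar fibroblast-like cells edgeR called 0 of the 16, with 2 at an unadjusted p under 0.05, and DESeq2 called 2 (Serpini1 and Tfpi2). In adventitial over alveolar fibroblast-like cells edgeR also called 0, with 3 at an unadjusted p under 0.05, and DESeq2 called 2 (A2m and Serpini1). Plaur, the urokinase receptor, averaged 0.153 CPM in pericyte-like, 47.5 in alveolar fibroblast-like and 33.4 in vascular SMC-like cells. Plaur was lower in pericyte-like cells in both comparisons (adjusted p = 0.00609 against alveolar fibroblast-like and 0.00851 against vascular SMC-like cells by edgeR), calls lost without the second male or the female, and is named after its values were seen.

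The genes whose pattern was most like each of the 5 members called were found over the 15 sums of the 5 classes, by Pearson's r of log2(CPM + 1) among 10262 genes with a mean of at least 10 CPM. They were Selenop (r = 0.961) and Colec12 (0.957) for F2r, Oxct1 (0.871) and Wfdc1 (0.844) for F3, Fndc1 (0.918) and Vsir (0.914) for Thbd, Pamr1 (0.971) and Fxyd6 (0.961) for Plat, and Tnc (0.934) and Tcim (0.897) for Serpine2. Sums of a mouse share plates, so these values are a description.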

How the data were processed

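Single-cell RNA was measured by Smart-Seq2. The authors deposited raw counts of reads, as whole numbers for each gene in each cell. Tools named by the submitters' processing notes are featureCounts and Subread, Bowtie and Bowtie2, and bcl2fastq, with builds GRCm38 and mm10, but no role, version or order. Strand and multi-mapping settings were not stated. No member overlaps another gene in the GENCODE M21 annotation (GRCm38), which gave coordinates and exon lengths. Ensembl IDs were matched to symbols, and counts without a symbol made up 0.184%. No column was left unused, and no cells shared their counts.

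Genes were split at random into parts (seed 1), with all members in the second part. Cells were clustered on 1000 variable genes of the first part (log of counts per 10000, 30 principal components, 15 neighbours, Leiden resolution 1), and these classes were used for the members. First-part genes were tested in the clustering on the second part. The adjusted Rand index of both clusterings was 0.669, and 97.8% of 1040 cells named in both had the same name. Names needed 3 markers detected in 25% of cells, a margin of 0.25 and leading genes that did not favour another class. A cluster with over 2 times the median mitochondrial share stayed unnamed. Members, lists, clustering details and naming rule were chosen with earlier results of these data known. The variable-gene choice and scaling were chosen after seeing clusters, comparing agreement of both parts and the cells named. No doublet caller was run, and a filter of 1000 genes, 20000 counts and 20% mitochondrial counts removed 0 cells.

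For each class, counts were added up within a mouse and tested with edgeR 4.0.16 (quasi-likelihood, two-sided, TMM, filterByExpr, the mouse as a block, Benjamini-Hochberg over all genes, calls under 0.05) in R 4.3.3. A class needed 10 cells in each mouse in both clusterings. Pericyte-like cells had 6, 9 and 32 (5, 8 and 32 in the other clustering), so they entered a separate fit with a minimum of 5, a choice made after seeing the data, as was the comparison of adventitial with alveolar fibroblast-like cells. The same animal gave every class, which is why mice pair the sums. SE is the size of the log2 fold change over the square root of F. All 9 members were named. Other genes of the list were named if among the 8 smallest adjusted p over the classes or above 100 CPM in a class. Klkb1 was not analysed here. Some genes are not reported here. DESeq2 1.42.0 was an alternative. Intervals are exact (Clopper-Pearson) and cover counting error only. With the mouse as a block, p-values weigh differences between classes against the spread of those differences from mouse to mouse. All classes of a fit share the estimate of that spread.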

Additional observations from a re-analysis of the deposited data

How the results depend on the processing

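Called members kept their directions under the alternatives run, except that F3 in pericyte-like against alveolar fibroblast-like cells turned to a log2 fold change of 0.187 at Leiden resolution 2, where the pericyte-like class was wider; the cause was not tested. Members called over the fits that left out 1 mouse ran from 3 to 5 among all classes (5 with all mice), from 0 to 1 in airway SMC-like against vascular SMC-like cells (2), from 3 to 4 in alveolar fibroblast-like against vascular SMC-like cells (4), from 0 to 2 in alveolar myofibroblast-like against airway SMC-like cells (3), 0 in each for adventitial against alveolar fibroblast-like cells (2), 3 in each for pericyte-like against alveolar fibroblast-like cells (3) and from 3 to 5 for pericyte-like against vascular SMC-like cells (6). With only the compared classes in the fit they were 1 in airway against vascular SMC-like cells, 0 in alveolar myofibroblast-like against airway SMC-like cells, 0 in adventitial against alveolar fibroblast-like cells and 3 for pericyte-like against vascular SMC-like cells. Without the mouse as a block, which pairs sums of the same animal, they were 1 in airway against vascular SMC-like cells and 1 in adventitial against alveolar fibroblast-like cells. At Leiden resolution 0.5 they were 3 over the classes left, which were airway SMC-like, vascular SMC-like and alveolar myofibroblast-like cells. Members called were then 1 in airway against vascular SMC-like cells and 1 in alveolar myofibroblast-like against airway SMC-like cells. At resolution 2 they were 1 in pericyte-like against alveolar fibroblast-like cells and 1 in adventitial against alveolar fibroblast-like cells. Clustering on all variable genes but the list gave 1 in airway against vascular SMC-like and 1 in adventitial against alveolar fibroblast-like cells, and keeping the cluster with a high mitochondrial share in its class, added after seeing the data, gave 1 in the airway comparison. In adventitial against alveolar fibroblast-like cells, no filter on low counts, another gene split, cells thinned to 50000 counts, and removal of cells with 10 counts in 5 markers of other lineages (added after seeing the data) each gave 1. DESeq2 called 1 member in alveolar myofibroblast-like against alveolar fibroblast-like cells. Apart from the fits without 1 mouse, only larger changes are listed above, and smaller ones occurred too. Among these, DESeq2 called 6 members among all classes and 3 in airway against vascular SMC-like cells. Without either plate of the first male, and so without adventitial fibroblast-like cells, 4 were called over the classes left. Clustering on all variable genes but the list gave 3 in alveolar fibroblast-like against vascular SMC-like cells.

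The planned removal of cells with a count in 2 markers of other lineages would have removed all 949 cells of the classes and gave no value. No value could be had where a class was missing: airway SMC-like cells at resolution 2, alveolar and adventitial fibroblast-like cells at 0.5, and adventitial fibroblast-like and pericyte-like cells without a plate of the first male. With a mouse left out, the number of all genes called was 0.302 to 0.386 times that with all mice among all classes (1581 genes), 0.360 to 0.527 times for pericyte-like against vascular SMC-like cells (1293), 0.366 to 0.563 times for pericyte-like against alveolar fibroblast-like cells (1280), 0.360 to 0.469 times for alveolar fibroblast-like against vascular SMC-like cells (842), and 0.071 to 0.415 times in the 4 other comparisons. DESeq2 called 1.95 to 10.4 times as many genes over the comparisons. Over the other edgeR settings the ratio was 0.037 to 1.70. Depth limits the small classes: 6 pericyte-like and 12 adventitial fibroblast-like cells of the first male carry their sums.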
